A study of Mus musculus with 2 samples.

Results

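Histone genes were described in RNA of the newborn mouse forebrain, with the clustered replication-dependent genes set against the variant genes that are classed as polyadenylated. The members were the protein-coding genes whose symbols begin with Hist1h, Hist2h, Hist3h or Hist4h, together with H2afx, H2afz, H2afv, H2afy, H2afy2, H3f3a, H3f3b and H1f0. There were 72 such genes, 64 clustered genes and 8 variants, among 43346 genes listed and 21474 protein-coding genes matched to the annotation. Another 3 genes taken by the symbol rule, Hist2h2bb, Hist1h2bm and Hist1h2bh, had no entry under their gene identifier and were not analysed here.

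The material was RNA longer than 200 nt from the forebrain of strain B6NCrl mice at postnatal day 0, extracted by the mirVana method and taken at 13 pg, 1 cell-equivalent, into a Smart-seq protocol. Each of the 2 libraries came from the whole forebrain of 1 pup, called pup 1 (replicate 1) and pup 3 (replicate 2), and both belong to 1 untreated group. The labels give both libraries the same donor identifier, so their treatment as separate animals rests on the pup labels. Despite its listing as single-cell sequencing, a library here held RNA of all forebrain cells, so fewer cells of a type and less RNA per cell cannot be told apart. With 1 library a pup, no difference between the pups was tested, and differences between animals and differences between library preparations cannot be told apart.

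Replication-dependent histone genes lie in clusters, have no introns in their classical form and are transcribed mainly while a cell copies its DNA. Their messages end in a conserved stem-loop, bound by the stem-loop binding protein Slbp, in place of a poly(A) tail. Most variant histones are made throughout the cell cycle from ordinary polyadenylated messages and replace the canonical histones in cells that no longer divide, such as neurons. H2afx is counted here as a variant by the rule, although it also has the stem-loop after its stop codon. Smart-seq starts complementary DNA at a poly(A) tail, and some clustered genes are also known to make polyadenylated forms. Messages that end in the stem-loop may therefore be missed. Counts, levels and shares of clustered genes below are those of captured RNA, and how much was missed was not tested.

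The stem-loop was looked for in the GENCODE M21 transcript models as a 6-base stem opening with GG, a 4-base loop opening with TT and the complementary stem, within 150 bases after the stop codon. It was present in 42 of the 64 clustered genes, and in 42 of the 48 whose model held at least 50 bases after the stop. It began 21 to 58 bases after the stop, at a median of 31.5 bases. Over all 21308 protein-coding genes with an annotated stop, 54 had it (0.253%), of which 11 were no members. Among the variants it was present in H2afx only, at 46 bases after the stop. The sequences below show how alike the element is in the most abundant clustered genes: up to 3 genes of each core family and 2 linker histone genes with the highest mean levels among those that have it, with the stem in capitals, the loop between the 2 arms in lower case and up to 5 bases on each side, written as DNA from 5′ to 3′.

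Hist1h1c: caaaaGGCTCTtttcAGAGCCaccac
Hist1h1e: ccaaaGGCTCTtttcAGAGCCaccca
Hist1h2ap: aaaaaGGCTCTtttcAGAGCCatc
Hist1h2ab: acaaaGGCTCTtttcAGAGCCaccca
Hist3h2a: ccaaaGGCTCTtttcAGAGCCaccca
Hist3h2ba: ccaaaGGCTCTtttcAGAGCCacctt
Hist1h2bk: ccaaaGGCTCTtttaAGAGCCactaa
Hist1h2be: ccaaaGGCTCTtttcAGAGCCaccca
Hist1h3e: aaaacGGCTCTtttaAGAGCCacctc
Hist2h3c2: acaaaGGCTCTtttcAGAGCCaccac
Hist1h4d: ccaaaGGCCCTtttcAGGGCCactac
Hist1h4i: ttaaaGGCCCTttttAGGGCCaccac
Hist1h4h: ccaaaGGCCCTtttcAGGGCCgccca

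On the mm10 assembly the 16-base element of Hist1h2ap lay at chr13:21833029-21833044 on the minus strand, that of Hist1h4d at chr13:23581950-23581965 on the plus strand and that of Hist3h2ba at chr11:58949349-58949364 on the plus strand. The clustered genes carried 6 distinct forms, and H2afx carried a form of its own. The form shown for Hist1h2ap was shared by 24 genes of the H1, H2A, H2B and H3 families, and the form shown for Hist1h4d by 7 genes, all of the H4 family. The 11 H4 genes with the element carried 3 forms that no clustered gene of another family had, and the 31 genes of the other families carried the other 3 forms. Summed over the genes that carry it, the element of Hist1h2ap accounted for 392 TPM in pup 1 and 1021 TPM in pup 3, and that of Hist1h4d for 136 TPM in pup 1 and 231 TPM in pup 3.

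Levels are given in TPM, a relative transcript abundance which is scaled by transcript length and has the same total in each library. A gene was called found at 1 TPM or more. The deposited expected counts summed to 41082811 reads in pup 1 and 29881397 in pup 3, and 10096 genes were found in pup 1 against 6960 in pup 3. Histone genes took 0.583% of all TPM in pup 1 and 0.918% in pup 3. Most clustered genes were not found: pup 1 had 15 of 64, pup 3 had 11, and 6 were found in both pups, while 44 were found in neither and 35 had 0 reads in both. All 8 variants were found in both pups. Those counts are 23.4% of the clustered genes in pup 1, 17.2% in pup 3 and 9.38% in both pups, against 42.2%, 29.0% and 24.8% of all protein-coding genes. The clustered genes found in neither pup were 68.8%, against 53.6% of protein-coding genes, of which 10052 of 21474 had 0 reads in both. Of the genes found in either pup, 30.0% of the clustered genes (6 of 20) and 53.4% of protein-coding genes were found in both.

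The clustered genes that were found ranged in level from 1.05 to 177 TPM in pup 1 and from 1.07 to 675 TPM in pup 3, and the sum rested on a few of them. The 3 genes with the highest mean level, Hist1h2ap, Hist1h4d and Hist3h2ba, held 67.5% of all clustered TPM in pup 1 and 80.1% in pup 3.

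**Figure D1:**
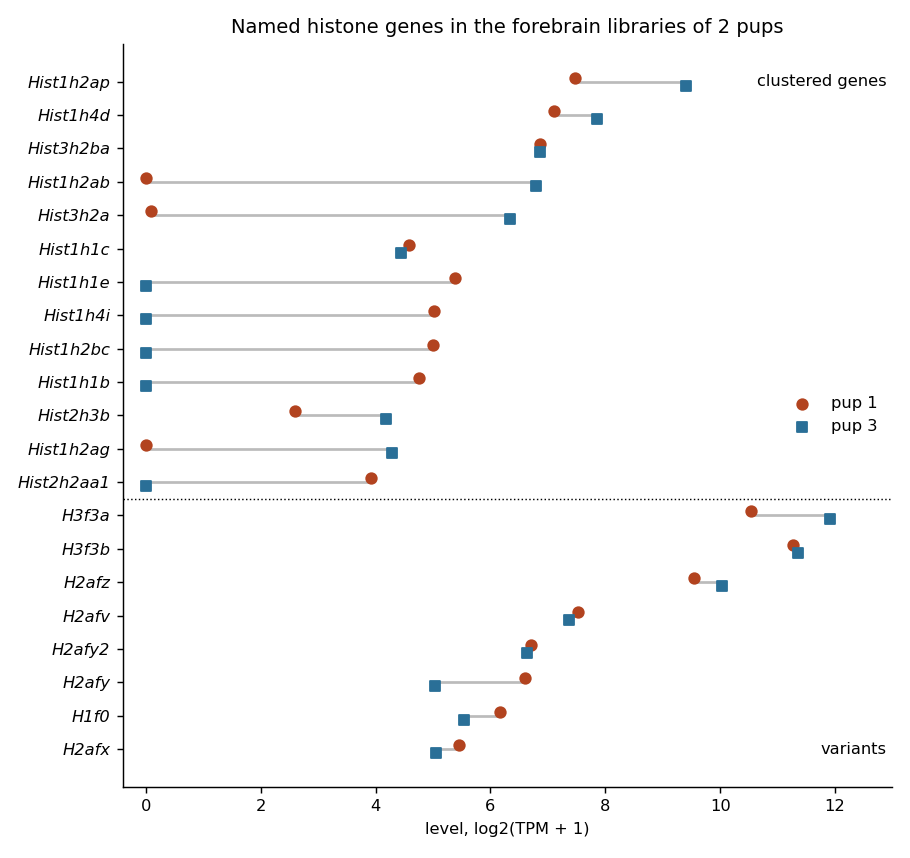
Level on the log2(TPM + 1) scale (horizontal axis) of 13 clustered genes (above the dotted line) and the 8 variants (below it) in pup 1 (circles) and pup 3 (squares), with a grey line joining the pups. The circles and squares of Hist3h2ba and Hist1h1c nearly coincide, whereas 7 clustered genes have 0 TPM in 1 pup, and every variant has more than 30 TPM in both pups.

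Among linker histones, which bind the DNA between nucleosomes, Hist1h1c reached 23.0 TPM in pup 1 beside 20.6 TPM in pup 3, a ratio of 1.11 between the pups. Hist1h1e had 40.7 TPM (701 reads) in pup 1 and 0 reads in pup 3, 204-fold higher in pup 1 when 3 reads are taken as the floor. Hist1h1b had 26.1 TPM (446 reads) in pup 1 and 0 reads in pup 3, 129.8-fold higher in pup 1 on that floor. The clustered H1 sum of 89.9 TPM in pup 1 and 20.6 TPM in pup 3 therefore differed by 2.07 on the log2 scale, while the gene found in both pups barely differed. The other clustered H1 genes, Hist1h1a, Hist1h1d and the testis gene Hist1h1t, were below 0.1 TPM in both pups.

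The H2A family, whose protein pairs with H2B in the nucleosome, held the highest clustered gene. Hist1h2ap had 177 TPM (1798 reads) in pup 1 and 675 TPM (5988 reads) in pup 3, and it made up 84.0% of clustered H2A TPM in pup 1 and 76.1% in pup 3. It was higher in pup 3, at a log2 ratio of -1.92 for pup 1 over pup 3. Hist1h2ab had 0 reads in pup 1 and 110.2 TPM (955 reads) in pup 3, 365-fold lower in pup 1 on the floor of 3 reads. It shares sequence with Hist1h2ap and other copies, so how reads divide among them is uncertain. Hist3h2a had 0.06 TPM, 3 reads, in pup 1 and 79.7 TPM (3782 reads) in pup 3, and the ratio of pup 3 over pup 1 was 1444 with a 95% counting interval of 494 to 7004. Hist1h2ag had 0 reads in pup 1 and 18.5 TPM in pup 3, whereas Hist2h2aa1 had 14.1 TPM in pup 1 and no read at all in pup 3. These H2A genes thus split in both directions. The clustered H2A sum was 211 TPM in pup 1 and 887 TPM in pup 3.

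For H2B, Hist3h2ba was nearly equal in the pups, with 116 TPM (1590 reads) in pup 1 and 116 TPM (1382 reads) in pup 3. Hist1h2bc had 31.1 TPM (525 reads) in pup 1 and 0 reads in pup 3, 153-fold higher in pup 1 on the floor of 3 reads. The family's 15 clustered genes summed to 155 TPM in pup 1 and 117 TPM in pup 3, of which Hist3h2ba held 75.1% in pup 1 and 98.7% in pup 3. Of the 15 genes, 10 had 0 reads in both pups, where 35 of all 64 clustered genes and 10052 of 21474 protein-coding genes did.

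Clustered H3 genes, which encode the replication-coupled core histone that carries many of the known regulatory marks, were the lowest of the 5 families. Their 12 genes summed to 13.5 TPM in pup 1 and 17.2 TPM in pup 3. In pup 3 that sum was 1 gene, Hist2h3b, at 17.2 TPM against 5.08 TPM in pup 1. For H4, which pairs with H3, Hist1h4d had 136 TPM (1064 reads) in pup 1 and 229.7 TPM (1565 reads) in pup 3, the second highest level among clustered genes in both pups. Hist1h4i had 31.3 TPM (521 reads) in pup 1 and 0 reads in pup 3, 152-fold higher in pup 1 on the floor of 3 reads. Clustered H4 genes summed to 168 TPM in pup 1 and 231 TPM in pup 3, and 9 of the 13 had 0 reads in both pups. Over protein-coding genes, 10052 of 21474 had 0 reads in both.

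The variants were led by the genes for the replacement histone H3.3, which is deposited outside replication. H3f3a had 1491 TPM (30795 reads) in pup 1 and 3875 TPM (75594 reads) in pup 3, and H3f3b, which encodes the same protein, had 2457 TPM in pup 1 and 2619 TPM in pup 3. H3f3b was the higher of the pair in pup 1 and H3f3a in pup 3, since H3f3a differed 2.60-fold between the pups and H3f3b 1.07-fold. H2afz, a variant found at promoters and regulatory sites, had 750.0 TPM in pup 1 and 1044 TPM in pup 3. H2afv, the gene of its close relative, had 182 TPM in pup 1, close to its 165 TPM in pup 3. The order H2afz above H2afv above H2afy2 held in both pups.

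The macroH2A genes carry a large extra domain and are known from silenced chromatin such as the inactive X chromosome. H2afy2 had 103 TPM in pup 1 and 99.0 TPM in pup 3, whereas H2afy had 95.5 TPM (4612 reads) in pup 1 and 31.9 TPM (491 reads) in pup 3, 2.99-fold higher in pup 1. H1f0, a linker histone that accumulates in differentiated cells, had 71.1 TPM in pup 1 and 45.3 TPM in pup 3. H2afx, which is phosphorylated beside DNA breaks, was the lowest variant by mean level, with 42.8 TPM in pup 1 and 32.2 TPM in pup 3. H1f0 was above H2afx in both pups, at means of 58.2 ± 18.3 and 37.5 ± 7.46 TPM (SD, n = 2). H2afy was above both in pup 1 and below both in pup 3, at a mean of 63.7 ± 45.0 TPM.

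The reads of H2afy were assigned to different transcripts in each pup. In pup 1 protein-coding transcripts held 85.0 TPM of the gene, 89.0% of it, nearly all in 1 transcript of 2046 bases with 4390.2 reads. In pup 3 they held 0.860 TPM, 2.70%, and a retained-intron transcript of 728 bases with 452 reads held 31.0 TPM, 97.3%. That transcript had 51.4% of its 100-base windows in no other gene. The rest are shared with the antisense gene Gm47071, which had no level listed, and its part in these reads was not tested. Over protein-coding transcripts alone the difference between the pups was 5.53 on the log2(TPM + 1) scale, against 1.55 over the whole gene. The other 7 variants had 86.3% to 100% of their TPM in protein-coding transcripts in pup 1 and 92.4% to 100% in pup 3. H3f3b was the lowest of these, with a processed transcript at 337 TPM in pup 1 beside 187 TPM in pup 3.

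**Figure D2:**
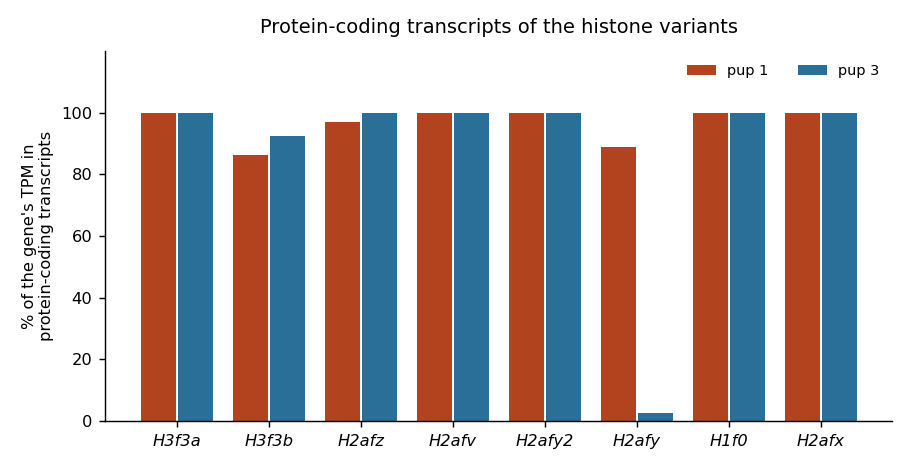
Percent of each variant's TPM in transcripts annotated as protein-coding (vertical axis) for the 8 variants in pup 1 (left bar) and pup 3 (right bar), 1 library each. All bars stand at 86.3% or more except that of H2afy in pup 3, which is at 2.70%.

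Set side by side, the variants stood far above the clustered genes. The median level was 0 TPM for the 64 clustered genes in both pups and 143 TPM in pup 1 and 132 TPM in pup 3 for the 8 variants, a difference of -7.11 in pup 1 and -7.01 in pup 3 on the log2(TPM + 1) scale. The median over all protein-coding genes was 0.01 TPM in pup 1 and 0 TPM in pup 3, so the clustered median did not stand apart from it. Clustered genes summed to 637 TPM in pup 1 and 1273 TPM in pup 3 (955 ± 449.8, SD, n = 2), and variants to 5193 TPM in pup 1 and 7911 TPM in pup 3 (6552 ± 1922). Clustered genes therefore made up 10.9% of histone TPM in pup 1 and 13.9% in pup 3 (12.4% ± 2.08, SD, n = 2). By reads, which weight long transcripts, they made up 5.32% on average, and by TPM without Hist1h2ap 7.58%. All are shares of captured RNA. Whether the captured clustered messages carried a poly(A) tail, and what messages that were not captured would add, was not tested.

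The balance differed by family. Clustered H3 genes made up 0.342% of H3 TPM in pup 1 and 0.264% in pup 3, the rest being H3f3a and H3f3b at 3948 TPM in pup 1 beside 6494 TPM in pup 3. Clustered H2A genes made up 15.2% in pup 1 and 39.3% in pup 3, beside 1174 and 1372 TPM of H2A variants in those pups. Clustered H1 genes made up 55.8% in pup 1 and 31.3% in pup 3. The H2B and H4 families have no variant among the members, and their clustered sums lay between 117 and 231 TPM, above the clustered H3 sums and below the H3 variant sums of both pups.

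**Figure D3:**
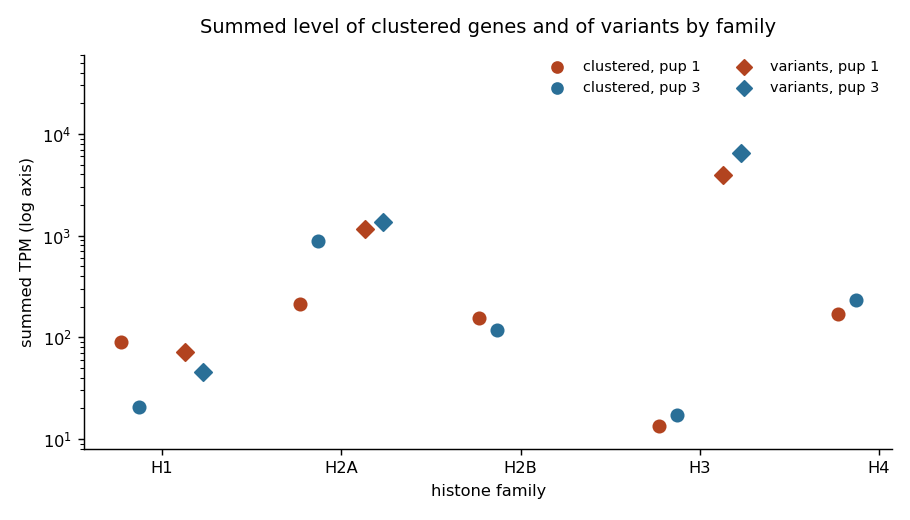
Summed TPM (vertical log axis) of clustered genes (circles) and variants (diamonds) for each histone family (horizontal axis), with pup 1 left of pup 3 in each pair. The H3 variants stand at 3948 and 6494 TPM and the clustered H3 genes at 13.5 and 17.2 TPM, whereas the classes lie close together for H1.

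Among the 29 clustered genes with any read, 10 were 2-fold or more higher in pup 1, 7 were 2-fold or more higher in pup 3 and 12 lay within 2-fold, on log2(TPM + 1). These are 34.5% and 24.1% of the 29, and the protein-coding genes with any read gave 42.8% and 20.0%. Among the variants, H2afy was past 2-fold in pup 1 and H3f3a in pup 3, and 6 lay within 2-fold. Pup 1 had more reads and more genes found than pup 3 and pup 3 had the larger share of TPM in spike-ins, 4.46% in pup 1 and 7.30% in pup 3; the part of these in the differences between the pups was not tested.

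**Figure D4:**
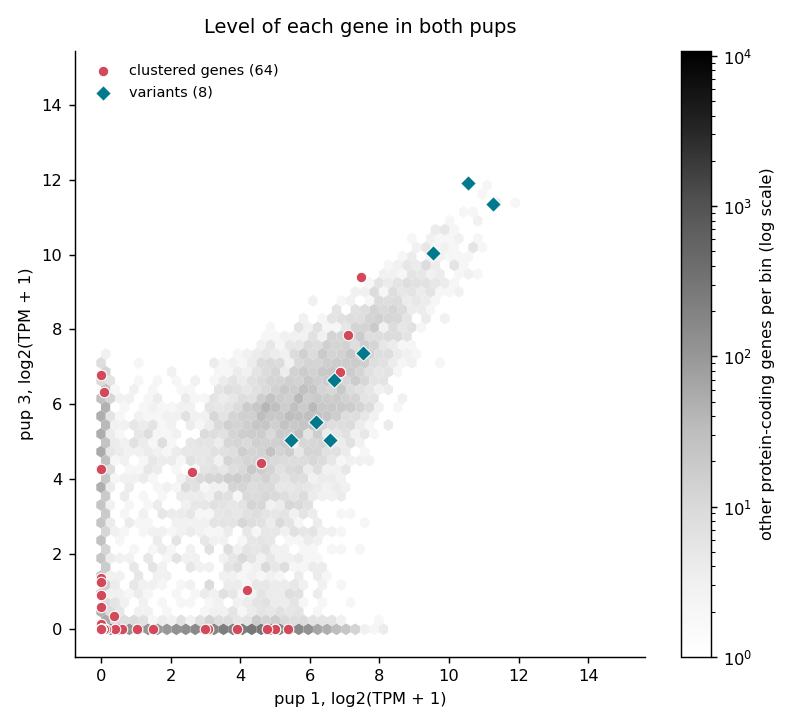
Level in pup 1 (horizontal axis) and pup 3 (vertical axis), both on log2(TPM + 1), of the 64 clustered genes (circles), the 8 variants (diamonds) and all other protein-coding genes (grey bins, darker for more genes on a log scale). All variants lie in the cloud of genes found in both pups, and 14 of the 20 clustered genes that were found lie near or on an axis, found in 1 pup only.

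The Hist1 cluster on chromosome 13 held 52 of the members, of which 10 were found in pup 1, 6 in pup 3 and 3, Hist1h2ap, Hist1h4d and Hist1h1c, in both. These are 19.2%, 11.5% and 5.77%, against 42.2%, 29.0% and 24.8% of all protein-coding genes. The found genes were scattered among neighbours that were not found. Clustered H2A and H2B genes often lie head to head and share the interval between their starts. There were 12 such pairs with starts at most 500 bases apart, at gaps of 176 to 306 bases, and in 6 pairs neither gene was found, in 6 pairs 1 gene was found and in 0 pairs both were, where 20 of the 64 clustered genes and 9966 of the 21474 protein-coding genes were found in a pup. In the pair with the highest level, Hist1h2ap had 177 TPM in pup 1 and 675 TPM in pup 3, and Hist1h2br, across a gap of 236 bases, had 0 TPM in both. These genes share most of their sequence with other copies, with 7.83% of 100-base windows in no other gene for Hist1h2ap and 0.173% for Hist1h2br, so how reads divide among the copies is uncertain. In another, Hist1h2ac had 0.300 TPM in pup 1 and 0.270 TPM in pup 3, and Hist1h2bc 31.1 TPM in pup 1 and 0 TPM in pup 3.

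**Figure D5:**
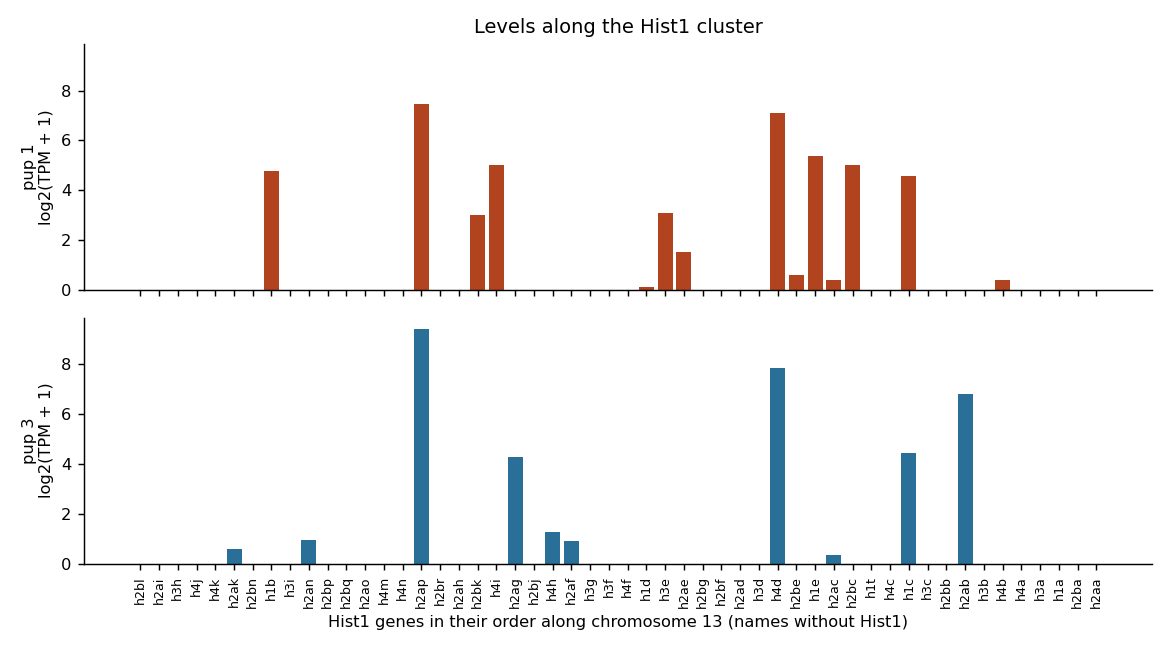
Level on log2(TPM + 1) (vertical axes) of the 52 Hist1 genes in their order along chromosome 13, in pup 1 (upper panel) and pup 3 (lower panel). Tall bars stand among genes at 0. Those of Hist1h2ap, Hist1h4d and Hist1h1c recur in both panels, while Hist1h1e, Hist1h4i and Hist1h2bc appear in the upper panel and Hist1h2ab in the lower.

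The 250 bases before the RefSeq start of Hist1h2ap, of which 32 lie inside the GENCODE model used above and the rest before it, are shown as the upstream region of the most abundant clustered gene, from RefSeq on GRCm38.p6 at chr13:21833476-21833725 on the minus strand. Capitals mark CCAAT or its complement ATTGG, the box bound by the nuclear factor Y complex.

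Hist1h2ap upstream: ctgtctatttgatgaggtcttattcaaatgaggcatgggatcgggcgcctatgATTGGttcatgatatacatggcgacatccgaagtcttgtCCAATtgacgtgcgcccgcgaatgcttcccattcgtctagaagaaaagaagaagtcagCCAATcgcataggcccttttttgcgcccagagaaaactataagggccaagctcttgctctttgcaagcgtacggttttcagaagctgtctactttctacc

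It held 3 matches to CCAAT and 0 to TATAAA on either strand. Promoters of 59 clustered genes and 7 variants were matched by name and place. A gene was counted when any of its promoters of that length held the motif. CCAAT was present for 81.4% of these clustered genes, 57.1% of these variants and 37.5% of all 27025 genes with a listed promoter. TATAAA was present for 49.2% of these clustered genes, 14.3% of these variants and 14.3% of all those genes. The clustered genes found in a pup did not stand apart from those found in neither, with CCAAT in 15 of 18 and 33 of 41 genes and TATAAA in 8 of 18 and 21 of 41.

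The end of the transcript model was set beside the levels as well. Of 21 clustered genes whose model runs over 100 bases past the stem-loop, 9 (42.9%) were found in a pup. It was 7 (33.3%) of 21 with models ending within 100 bases of it, and 4 (18.2%) of 22 with no stem-loop in the model. Over protein-coding genes, 9966 of 21474 were found in a pup. Only 48 of the 64 clustered genes had a model with at least 50 bases after the stop. The rest fall among the 22, where a short model could hide the element, so the 22 cannot be read as genes without a stem-loop. The genes with long models included Hist1h4d, whose model runs 770 bases past the element, Hist3h2ba with 169 bases, Hist1h1c with 840 bases and Hist3h2a with 1643 bases. Hist1h2ap, the highest clustered gene, has a model that ends 3 bases after its element. The poly(A) signal AATAAA was present in the last 50 bases of a model in 14 of 64 clustered genes, 6 of 8 variants and 66.4% of protein-coding genes. It was looked for only in models with at least 50 bases after the stop, which 48 of the 64 clustered genes had. Hist3h2ba, Hist3h2a and Hist1h1c have it, and 5 of the 14 clustered genes with it were found in a pup (35.7%). Of the other 50, 15 were found (30.0%), but these include genes that were not searched, such as Hist1h1b and Hist2h3b. These shares therefore do not compare genes with and without the signal. The models are those of a later annotation than the deposited tables use, and Hist1h4d is 393 bases long in the tables against 1138 bases in the later one. Other genes with long models were also shorter in the tables, such as Hist1h1e at 748 against 1930 bases and Hist1h2ac at 476 against 2482 bases. Their levels were thus estimated on the shorter models. Hist3h2ba, Hist1h1c and Hist3h2a had the same length in both.

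Many clustered genes share sequence, and the deposited estimates divide reads among the copies. Cut into windows of 100 bases, the clustered genes had a median of 62.2% of windows in no other gene, 27 of 64 had less than 50% and 5 had none. Hist1h2ap had 7.83% of its windows to itself, Hist1h2ag 23.8% and Hist1h2ab 47.6%, so how H2A reads divide among copies is uncertain. The same holds for Hist2h2aa1 and Hist2h3b, which had 0%. Hist2h2aa2, the twin of Hist2h2aa1, had 17.3 TPM in pup 1 and 1.07 TPM in pup 3. By contrast, Hist1h4d and Hist1h1b had 100%, Hist3h2ba 95.1% and Hist1h1c 94.9%. Among variants H2afz had 41.2% and H3f3a 73.7%. These shares are for each gene's longest protein-coding model. For H3f3a that model held 5.96% of the gene's TPM in pup 1 and 7.73% in pup 3. The H3f3a model with 58.6% of TPM in pup 1 and 68.1% in pup 3 had 37.5% of windows to itself. The genes outside the members that share windows with H3f3a, among them H3f3a-ps1 and H3f3a-ps2, summed to 119 TPM in pup 1 and 628 TPM in pup 3. For H2afz such genes summed to 273 TPM in pup 1 and 241 TPM in pup 3. Hist1h2be overlaps Hist1h1e on the same strand and had 0.520 TPM in pup 1 and 0 in pup 3.

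Genes that make, deposit and use histones were read from 3 lists. Of 14 genes of histone message processing and decay, pup 1 had 10, pup 3 had 6 and 5 were found in both (35.7%), against 24.8% in both over protein-coding genes. Slbp had 64.2 TPM in pup 1 and 53.7 TPM in pup 3, and Cpsf3, the nuclease that cuts histone messages after the stem-loop, had 60.8 TPM in pup 1 and 54.1 TPM in pup 3. Lsm1, which acts in message decay, had 0.03 TPM in pup 1 against 79.4 TPM in pup 3. The U7 particle proteins Lsm10 and Lsm11 had 31.5 and 19.7 TPM in pup 1 and 0 reads in pup 3. Npat, the coactivator of clustered histone genes, had 0 reads in both.

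Of 26 histone chaperone and deposition genes, 24 were found in pup 1 and 12 in pup 3, with 12 in both (46.2%) and 0 in pup 3 alone, against 42.2% in pup 1, 29.0% in pup 3, 24.8% in both and 905 of 21474 in pup 3 alone over protein-coding genes. Npm1, a nucleolar chaperone, had 767 TPM in pup 1 and 521 TPM in pup 3. Set had 282 TPM in pup 1 and 124 TPM in pup 3, and Nap1l4, an H2A and H2B chaperone, 316 TPM in pup 1 and 88.4 TPM in pup 3. For the deposition of H3.3, Atrx had 237 TPM in pup 1 and 154 TPM in pup 3, its partner Daxx 105 TPM in pup 1 and 0 reads in pup 3, and Hira 1.19 TPM in pup 1 and no read in pup 3. Of the subunits of the replication-coupled factor CAF-1, Chaf1b had 15.5 TPM in pup 1 and 32.7 TPM in pup 3, and Chaf1a had 0 reads in both.

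Of 25 S phase and proliferation genes, pup 1 had 12, pup 3 had 8 and 5 were found in both (20.0%), close to the 24.8% over protein-coding genes. Pcna, the sliding clamp of DNA replication, had 90.2 TPM in pup 1 and 97.5 TPM in pup 3, and Mcm6, a helicase subunit, had 61.5 TPM in pup 1 and 52.2 TPM in pup 3. Cdk1, the kinase of mitotic entry, had 113 TPM in pup 1 and no read in pup 3, while Gins2, a subunit of the replicative helicase, had 0.09 TPM in pup 1 against 81.6 TPM in pup 3. Of 11 other histone variant genes, H2afj had 14.3 TPM in pup 1 against 116 TPM in pup 3, the centromeric variant Cenpa 0.800 TPM in pup 1 and 27.5 TPM in pup 3, H1fx stayed under 1 TPM in both, and the other 8, mostly germ-line variants, had 0 reads.

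The tissue label was checked on marker lists of 6 genes each, where 42.2% of all protein-coding genes were found in pup 1 and 29.0% in pup 3. Neuron markers were found for 6 genes in pup 1 and 5 in pup 3, radial glia markers for 6 in pup 1 and 4 in pup 3, and forebrain transcription factors for 6 in pup 1 and 3 in pup 3. Of the other cells, erythroid markers were found for 5 genes in each pup, with Hba-a2 higher in pup 3, at 693 TPM in pup 1 against 1503 TPM in pup 3, and Hbb-bt near equal, at 219.7 TPM in pup 1 against 192 TPM in pup 3. Microglia markers were found for 4 genes in pup 1 and 2 in pup 3, and endothelial markers for 3 in each pup. The microglia share in pup 3, 33.3%, was close to the 29.0% over protein-coding genes. The part of these cell types in the histone levels was not tested.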

How the data were processed

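The deposited gene and transcript tables hold 1 library each. The authors deposited expected counts, in which reads that map to several places are divided among features; the column names match RSEM's output, per the file headers. The deposited TPM spans every listed feature including spike-ins, and the deposited FPKM divides reads by length and library total, per the file headers. The posterior standard deviation and credibility bounds, scores in the deposited tables, were read and support no statement. Text deposited with the libraries names assembly mm10 and annotation M4. Aligner and strand setting were not given in the sources used here.

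Symbols and transcript models came from GENCODE M21 by gene identifier, and promoters from RefSeq. The members and lists were chosen with earlier results of these data known. Named genes were the 8 variants, clustered genes at a mean of 10 TPM, those at 10 TPM in 1 pup with 0 reads in the other, and the 3 highest of each list; other genes named were chosen after their values were seen. Log2 ratios are pup 1 over pup 3 with a pseudocount of 1 and understate the change of low genes. A gene at 0 reads was set to a floor of 3 reads in that library. Intervals and floors cover counting error only. The 2 libraries form 1 group; the labels call them separate pups but give both the same donor identifier, and no p-value is given. Ratios and counts were tested on simulated data. Tools were Python 3.11.15, pandas 2.3.3, scipy 1.17.1, edgeR 4.0.16 and DESeq2 1.42.0, the last 2 used only for scaling factors from expected counts rounded to whole numbers. Alternatives covered thresholds, pseudocounts, units, scalings, filters and each pup alone.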

Additional observations from a re-analysis of the deposited data

How the results depend on the processing

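All 8 variants stayed found in both pups under every threshold and unit tried, and 7 of the 7 with at least 50% of their 100-base windows to themselves did. H3f3a passed at 50% by its longest protein-coding model, whereas the model with most of its TPM had 37.5%. Clustered genes found in both pups numbered 5 to 7 under other thresholds, 3 with that filter on windows (added after seeing the data, as was leaving out Hist1h2ap), and 11 to 15 in a pup taken alone. Clustered genes found in pup 3 only moved to 9 at 0.1 TPM, 3 at 5 TPM, 8 by posterior mean TPM and 3 with the windows filter, which left 25 found in neither. For each pup alone, the lists gave 6 to 10 processing genes, 12 to 24 chaperones and 8 to 12 S phase genes.

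The median difference of clustered genes minus variants was -10.37 with a pseudocount of 0.1, -3.83 with 10, -3.56 over members at a mean of 1 TPM or more, -6.57 in FPKM, -6.81 in posterior mean TPM, -6.98 by plain read share, -7.23 without spike-ins and mitochondrial genes and -7.11 to -7.01 in a pup alone. The medians behind these were -3.32, 3.32, 3.50 and 0.22 for clustered genes with pseudocount 0.1, pseudocount 10, the filter and posterior mean, and 7.16, 6.57, 6.98 and 7.23 for variants with pseudocount 10, FPKM, plain read share and without spike-ins. Between single pups the medians were 0 for clustered genes and 7.01 to 7.11 for variants. The clustered share of 12.4% was 5.32% by plain read share, 7.58% without Hist1h2ap, 7.34% with the windows filter and 10.9% to 13.9% in a pup alone.

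The clustered sum, just short of 2-fold lower in pup 1, passed it in FPKM (-1.26), by plain read share (-1.30), without spike-ins (-1.06), with edgeR factors (-1.08) and with DESeq2 factors (-1.10). With a pseudocount of 10, members past 2-fold numbered 7 in pup 1 and 5 in pup 3. Of 233 other ratios, 231 kept their side of 2-fold, 2 did not (Hist1h4d and Hist2h3b), and no ratio past 2-fold changed sign. Within 2-fold, 5 ratios changed sign under some units or scalings: H2afv, H2afy2, Hist1h1c, Hist3h2ba and the clustered H3 sum, which was -0.32 as reported, 0.06 by plain read share, 0.24 with edgeR factors and 0.26 with DESeq2 factors. The cause of these shifts was not tested beyond what each setting changes by construction. The median log2 ratio of protein-coding genes with any read was 0.49, and 1.05 with DESeq2 factors. No paired analysis was possible because there is 1 group. The floor of 3 reads is a CPM of 0.0730 in pup 1 and 0.1004 in pup 3, and why genes had 0 reads in 1 pup was not tested.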
